A study of Homo sapiens with 6 samples.

Results

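Chemokines are small secreted proteins that attract leukocytes along a gradient, and tumour epithelial cells can make large amounts of them. The CXC ligands encoded side by side on chromosome 4, CXCL1, CXCL2, CXCL3, CXCL5, CXCL6, CXCL8 and PPBP, act on neutrophils through the receptors CXCR1 and CXCR2, and most of them are known targets of the transcription factor NF-κB downstream of IL-1 and TNF. Their transcripts are short-lived and carry AU-rich elements in the 3′ untranslated region, which proteins of the ZFP36 family bind to hasten decay. CXCL16 is made as a membrane protein that ADAM10 and ADAM17 release and that CXCR6 recognises, CCL20 is the ligand of CCR6, and CCRL2 is a receptor-like protein that binds chemerin, the product of RARRES2, without signalling in the classical way. These 10 genes were taken by symbol from the 60649 gene rows of the count table. CCRL2 is among the genes that the study picked for their change with METTL3 in these libraries and in METTL3 knockdown cells. The other 9 were chosen by family and position with results of the libraries known. The members' values are therefore descriptions, and no p-value is given for them.

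The cells were OVCAR5, an established human ovarian cancer line, transduced with lentivirus and selected with puromycin. The METTL3 group carried a METTL3 overexpression construct and the vector group carried the empty vector. METTL3 is the catalytic subunit of the complex that writes m6A, a methyl mark on adenosines of mRNA. Each group had 3 libraries of poly(A)-selected RNA, and nothing in the labels says whether they came from separate transductions or cultures, so the spread between them may be technical. The labels name the control both as an empty-vector line and as parental, and the former is used here. The transgene's promoter, and whether a line was a pool or a clone, are not given in the sources used here. Total counts ranged from 96633925 to 125463386 per library, and the lowest count of any member was 204, for CCRL2 in vector replicate 2, where counting error alone is 7.0%. METTL3 itself was at 152 to 175 CPM (counts scaled to a common library total after TMM normalization, the usual CPM) in the METTL3 group and at 68.6 to 80.6 CPM in the vector group, without overlap (log2 fold change 1.16, standard error 0.12; adjusted p = 0.072 from edgeR). Replicate 1 of both groups stood apart from the other libraries. With the group in the model, edgeR's quasi-likelihood test called 1997 of 22038 genes between replicate 1 and replicates 2 and 3, so the groups were also compared in replicates 2 and 3 alone.

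Epithelial markers were present in every library, with KRT8 at 3131 to 5153 CPM and EPCAM at 247 to 483 CPM. The leukocyte marker PTPRC was at most 0.0708 CPM and CD3E at most 0.0354 CPM, but LYZ was at 28.1 to 57.0 CPM and CD14 at 7.02 to 11.4 CPM. The platelet genes GP9 and GP1BB were listed at 0 in all libraries, and PF4, which lies in the same chromosome 4 locus as the CXC ligands, was at most 0.0161 CPM. NRGN and ITGA2B, also on the platelet list, were at 12.7 to 25.0 CPM and 2.30 to 6.28 CPM. PPBP is best known from platelets, so these levels stand beside its values below. The summed leukocyte markers were at 36.9 to 49.8 CPM in the METTL3 group and 45.7 to 65.3 CPM in the vector group, and 4 of the 8 were under 0.1 CPM on average. The summed platelet markers were at 17.6 to 24.9 and 15.6 to 31.4 CPM, with 2 of 6 listed at 0 throughout. Fibroblast markers summed to 17.4 to 19.9 and 9.11 to 20.2 CPM. Endothelial markers summed to 9.11 to 23.3 CPM with METTL3 and to 6.02 to 8.73 CPM with the vector, so that these sums did not overlap, and 2 of the 6 were under 0.1 CPM on average. PECAM1 alone made up most of each sum, at 7.45 to 21.4 CPM with METTL3 and 4.67 to 7.74 CPM with the vector, and its groups overlapped. Like CCRL2, PECAM1 and LYZ are among the genes that the study picked for their change with METTL3. The part of these marker genes in the chemokine values was not tested.

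Of the 9 members with a promoter in the RefSeq table (GRCh38.p14, 250 bases before to 50 after the start), 6 held the NF-κB site GGAATTTCC on either strand, and all 6 were CXC ligands of chromosome 4. The same 9 letters occur in 0.461% of the 35116 promoters in that table. The windows printed below are much alike among CXCL1, CXCL2 and CXCL3, and between CXCL5 and CXCL6. The 6 matches are therefore not independent of each other. PPBP, CCL20 and CCRL2 held no match in this window, and CXCL16 had no entry. Other forms of the site were not searched for, so a window without a match may still hold an NF-κB site. The sequences below show these 9 shared letters, their near-equal distance from the start and their absence from the PPBP window. These are properties of the locus that the choice of genes did not use. Each sequence runs 5′ to 3′ along the gene's strand over the 120 bases before the RefSeq start, with GGAATTTCC and TATAAA in capitals.

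CXCL1, chr4:73869273-73869392, forward strand: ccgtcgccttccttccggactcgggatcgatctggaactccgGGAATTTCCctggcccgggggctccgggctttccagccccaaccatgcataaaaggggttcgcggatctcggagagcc
CXCL2, chr4:74099196-74099315, reverse strand: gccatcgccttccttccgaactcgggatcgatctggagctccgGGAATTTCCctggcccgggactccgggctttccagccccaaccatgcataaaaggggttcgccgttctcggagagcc
CXCL3, chr4:74038690-74038809, reverse strand: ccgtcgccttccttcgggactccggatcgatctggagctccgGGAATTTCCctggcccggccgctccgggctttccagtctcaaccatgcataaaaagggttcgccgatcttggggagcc
CXCL5, chr4:73998678-73998797, reverse strand: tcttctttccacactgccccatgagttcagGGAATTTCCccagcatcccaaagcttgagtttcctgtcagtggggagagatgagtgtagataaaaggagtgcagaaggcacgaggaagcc
CXCL6, chr4:73836558-73836677, forward strand: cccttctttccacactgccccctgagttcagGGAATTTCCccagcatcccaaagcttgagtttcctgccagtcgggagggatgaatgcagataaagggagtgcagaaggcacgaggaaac
CXCL8, chr4:73740449-73740568, forward strand: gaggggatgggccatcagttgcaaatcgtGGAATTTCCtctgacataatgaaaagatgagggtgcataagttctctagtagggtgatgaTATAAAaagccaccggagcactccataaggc
PPBP, chr4:73988191-73988310, reverse strand: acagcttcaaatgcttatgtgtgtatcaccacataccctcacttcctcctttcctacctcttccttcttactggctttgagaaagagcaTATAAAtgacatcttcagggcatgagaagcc

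The site began 78 bases before the start in CXCL1 and CXCL3 and 77 bases before it in CXCL2. It began 90, 89 and 91 bases before the start in CXCL5, CXCL6 and CXCL8. TATAAA, searched on the gene's strand alone, was found in CXCL8, PPBP and CCL20, against 7.33% of all promoters. Only these exact letters were searched, so other forms of this motif were not counted. The AP-1 site TGANTCA, searched on either strand, was found in CXCL8 alone of the members, 137 bases before the start, against 7.71% of all promoters. A match is a description of the letters and not of binding.

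**Figure D1:**
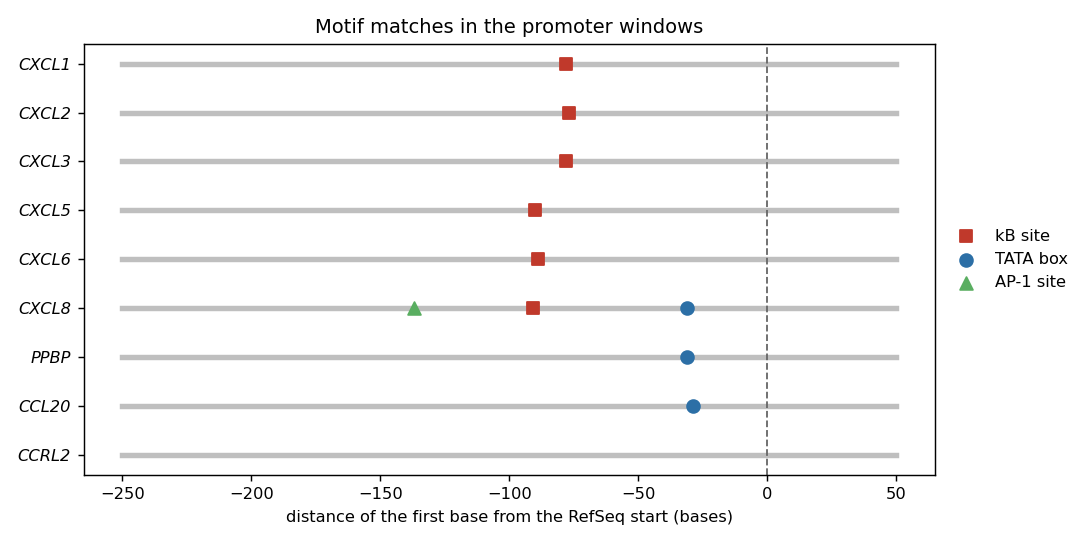
Exact matches to GGAATTTCC (squares), TATAAA (circles) and the AP-1 site TGANTCA (triangle) in the RefSeq promoter windows of 9 members, by distance in bases of the first base from the start (dashed line). The 6 CXC ligands with GGAATTTCC have it between 91 and 77 bases before the start, and CCRL2 has no match to the 3 motifs. Other forms of the motifs are not shown.

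The 7 ligands of chromosome 4 lie between 73740519 (CXCL8, GRCh38) and 74099196 (CXCL2). CXCL16 lies on chromosome 17 from 4733533 to 4739928, CCL20 on chromosome 2 from 227805739 to 227817564 and CCRL2 on chromosome 3 from 46407166 to 46412997. CXCL1 and CXCL2 share 93.5% of their aligned coding bases, CXCL2 and CXCL3 share 94.4%, and CXCL5 and CXCL6 share 87.5%. Of the 50-base windows of the representative (MANE) transcripts of CXCL1, CXCL2 and CXCL3, 5.33%, 10.1% and 5.26% also occur in transcripts of another of these 3 genes, so these counts are uncertain if reads of such length were split or dropped. With 150-base windows the share was 0.0% for all 3. The exons of PPBP overlap those of a second annotated gene on the same strand over 34.7% of their bases, and that gene was not analysed here. Of the 50-base and 150-base windows of the PPBP transcript, 32.2% and 26.3% also occur in transcripts of that gene. The PPBP counts are uncertain if such reads were split or dropped. The strand setting of the counting is not given in the sources used here. Of the CXCL5 exons, 17.3% lie opposite exons of the antisense gene ENSG00000287037, which had at most 2 counts in any library. Of the CXCL16 exons, 6.16% lie opposite exons of MED11 and ZMYND15, which had up to 931 and 138 counts in a library, where CXCL16 had 3320 or more.

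Of the 10 members, 8 held at least 3 copies of ATTTA, the core of an AU-rich element, in the 3′ untranslated region of the MANE transcript, against 44.9% of 14684 tested genes. CXCL2 had 13.97 copies per kilobase, CXCL3 had 10.4, CXCL1 had 7.77 and CXCL8 had 7.19, where the median gene had 1.60 and the 90th percentile was 4.74. CXCL16 had 1.03 per kilobase and CCRL2 had 0 copies. The letters GGACT, a frequent form of the m6A consensus, did not occur in the CXCL1, CXCL2, CXCL5, CXCL6 or CXCL8 transcript. They occurred at 1.72 per kilobase in CXCL16, 1.76 in CCRL2 and 2.40 in CCL20, against a median of 0.942. These are counts of letters, and no methylation was measured in these libraries.

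Levels per kilobase used the union of annotated exons, 1362 bases for CXCL1 and 2219 for CXCL3. The MANE transcripts of these genes have 1174 and 1075 bases. The order of the members, and the lead of CXCL1 over CXCL3, therefore depend on the length used. By this length the level of CXCL1 was the highest of the members, with 88.4 CPM per kilobase over the 6 libraries and a range from 70.6 to 114. No library of another member reached this range. CXCL8 followed at 50.9 (47.0 to 59.5) and CXCL3 at 49.2 (34.9 to 65.2), and the ranges of these neighbours overlapped. CXCL2 was at 30.2, CCL20 at 25.3, CXCL16 at 15.7, PPBP at 12.2, CXCL5 at 10.7 and CXCL6 at 8.25 CPM per kilobase, and each of these overlapped its neighbours in this order. CCRL2 was the lowest, at 1.15 CPM per kilobase with a range from 0.604 to 1.76, below every library of every other member. Summed over the members, the chemokine genes took 513 to 685 CPM in the METTL3 group and 440 to 651 CPM in the vector group, and the groups overlapped. A higher summed CPM in a bulk sample does not tell more RNA per cell from more cells that express the genes.

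The comparison of METTL3 with the vector asks what raised METTL3 does to the transcriptome. Over all 6 libraries 8 of the 10 members were higher with METTL3 and 2 were lower, and their median log2 fold change was 0.13, beside -0.02 over the 22038 genes tested, of which 47.3% were higher. No member was called at an adjusted p under 0.05 by edgeR, beside 0.0% of all genes, and 1 had an unadjusted p under 0.05, as did 1830 of all genes. DESeq2 called 1 member, CXCL16, beside 225 of 43096 genes. Without the filter on low counts edgeR called the same member, beside 560 of 43096 genes. The METTL3 libraries were above all vector libraries for 1 member, again CXCL16, and this holds for 8.47% of all genes. In every replicate number METTL3 was higher for 5 members (CXCL1, CXCL2, CXCL3, CXCL16 and CCRL2), and this holds for 19.6% of all genes. Since the choice of members knew this contrast, nothing is read from these counts.

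CXCL16, the membrane-anchored ligand, stood at 62.8, 48.5 and 49.1 CPM in replicates 1, 2 and 3 of the METTL3 group. The vector group had 35.0, 33.9 and 33.6 CPM in the same order. All METTL3 libraries lay above all vector libraries, and the vector libraries were close together. The means were 53.4 ± 8.10 CPM and 34.2 ± 0.733 CPM (SD, n = 3 each). The log2 fold change was 0.64 (standard error 0.13), a difference of 1.56-fold. It ranged from 0.53 to 0.73 over the 13 other settings. Of the proteases that release CXCL16, ADAM10 had means of 577 ± 20.9 (METTL3) and 585 ± 2.77 CPM (vector), and ADAM17 had 123 ± 9.27 and 115 ± 6.29 CPM (SD, n = 3 each), neither called by edgeR (adjusted p = 0.969 and 0.815). Its receptor CXCR6 was at most 0.284 CPM.

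CCRL2, the chemerin-binding receptor, was at 5.27, 3.27 and 3.97 CPM in METTL3 replicates 1, 2 and 3. In vector replicates 1, 2 and 3 it was at 4.30, 1.81 and 1.96 CPM. METTL3 was higher within each replicate number, but vector replicate 1 lay above METTL3 replicates 2 and 3, so the groups overlapped. The log2 fold change was 0.63 (standard error 0.35) over all libraries and 0.94 (standard error 0.16) in replicates 2 and 3. CCRL2 was chosen by the study on this contrast together with METTL3 knockdown cells, which are not among these libraries. Its difference here is therefore not independent evidence. RARRES2, whose product chemerin CCRL2 binds, had means of 6.78 ± 1.73 (METTL3) and 4.89 ± 0.240 CPM (vector; SD, n = 3 each; log2 fold change 0.47, adjusted p = 0.595 from edgeR). The signalling chemerin receptor CMKLR1 was at most 0.0354 CPM.

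CXCL1, a neutrophil attractant, was at 155, 115 and 120.4 CPM with METTL3 and at 132, 96.1 and 103 CPM with the vector in replicates 1, 2 and 3. The difference within each number was nearly the same, 0.23, 0.26 and 0.23 on the log2 scale, while replicate 1 was the highest library of each group. CXCL3, its close paralog, was at 145, 99.8 and 107 CPM with METTL3 and at 142, 77.4 and 84.4 CPM with the vector. Here the replicate 1 libraries were nearly equal, and the other METTL3 libraries lay above the other vector libraries by 0.37 and 0.35 on the log2 scale. CXCL2 was at 49.6, 39.9 and 45.4 CPM with METTL3 and at 40.3, 37.9 and 40.3 CPM with the vector. Its log2 fold change was 0.19 (standard error 0.12), and METTL3 replicate 2 fell within the range of the vector libraries.

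CXCL8, the ligand often called IL-8, was at 154, 122 and 129 CPM with METTL3 and at 139.5, 122 and 124 CPM with the vector. It varied the least of the members, 1.27-fold from the lowest to the highest library. Its log2 fold change was 0.07 (standard error 0.13) and its sign changed without METTL3 replicate 1, where it was -0.01. CXCL5 was at 36.6, 20.5 and 22.2 CPM with METTL3 and at 38.7, 18.4 and 20.4 CPM with the vector. Its log2 fold change of 0.03 ranged from -0.25 to 0.45 over the other settings. CXCL6, the paralog of CXCL5, was at 16.6, 15.2 and 15.1 CPM with METTL3 and at 21.8, 16.5 and 15.8 CPM with the vector. CXCL6 was lower with METTL3 within each replicate number, by 0.39, 0.12 and 0.07 on the log2 scale, and remained the only member below 0 in replicates 2 and 3.

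PPBP, the platelet basic protein gene, was at 20.6, 9.26 and 10.7 CPM with METTL3 and at 43.1, 5.90 and 5.80 CPM with the vector in replicates 1, 2 and 3. It varied the most of the members, 7.43-fold between libraries. Vector replicate 1 was the highest library and the other vector libraries were the lowest. The difference was -1.06 on the log2 scale in replicate 1 and 0.65 and 0.88 in replicates 2 and 3. The fitted value over all libraries, -0.43 (standard error 0.74), changed to 1.21 without vector replicate 1 and to 0.15 with the replicate number as a block. CCL20, the CCR6 ligand, was at 39.0, 39.4 and 44.3 CPM with METTL3 and at 53.4, 29.9 and 35.8 CPM with the vector. It too differed in sign, by -0.45 in replicate 1 and by 0.40 and 0.31 in replicates 2 and 3.

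**Figure D2:**
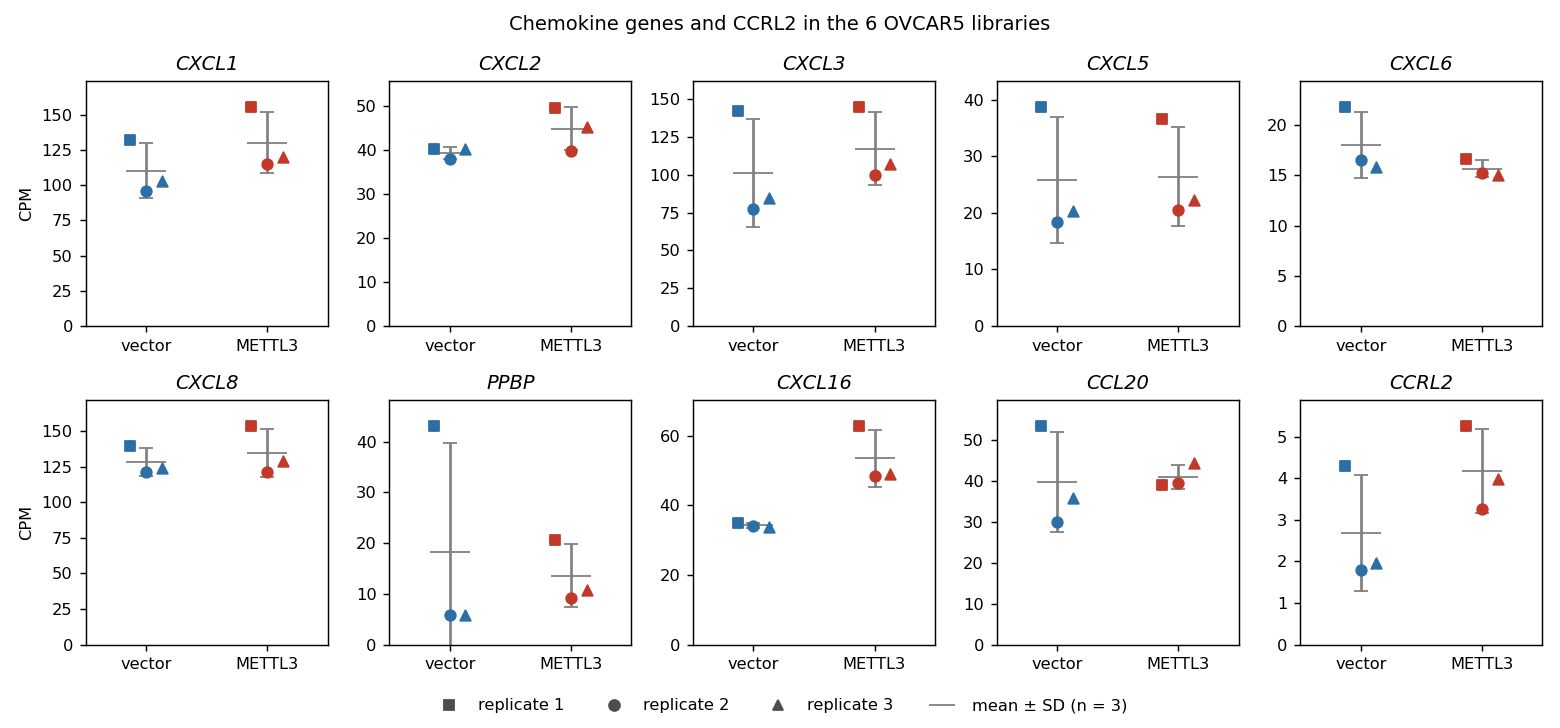
CPM (TMM-scaled) of each member in the 3 vector (blue) and 3 METTL3 (red) libraries, with the marker giving the replicate number and grey bars the mean and SD of each group, cut at 0 for PPBP. CXCL16 is the member whose groups do not overlap, and replicate 1 (squares) is the highest vector library of all members but CXCL2, where it lies level with replicate 3.

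**Figure D3:**
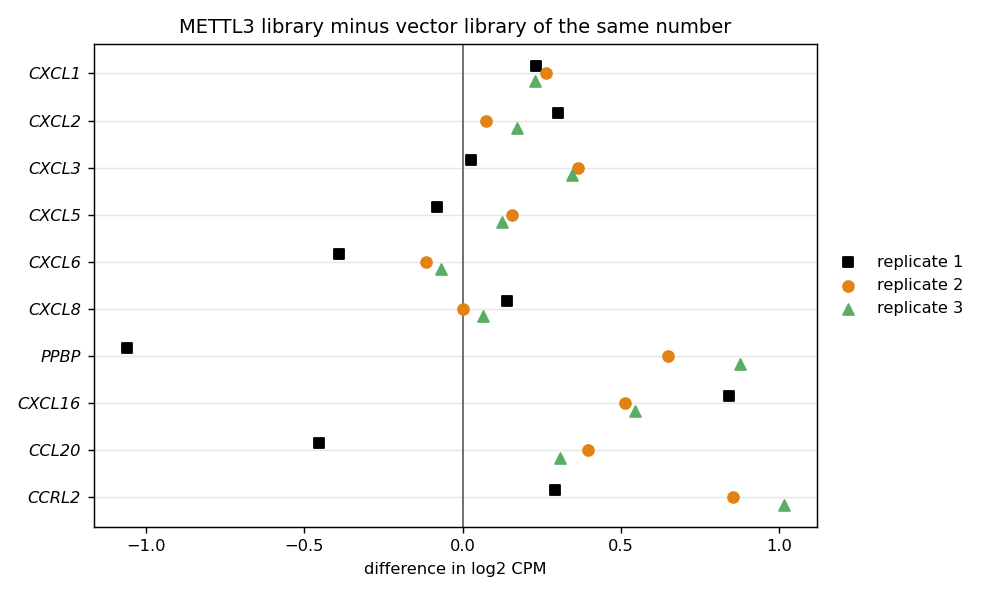
Difference in log2 CPM between the METTL3 and the vector library of the same replicate number, for each member. PPBP, CCL20 and CXCL5 are below 0 in replicate 1 and above 0 in replicates 2 and 3, CXCL6 is below 0 in all 3, and CXCL16 is at 0.51 or more in each.

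In replicates 2 and 3 of each group, a comparison chosen with earlier results known, 9 of the 10 members were higher with METTL3, with a median log2 fold change of 0.30, beside 0.00 over 22046 genes. The edgeR test called 6 members (CXCL1, CXCL3, PPBP, CXCL16, CCL20 and CCRL2), all higher. It called 15.2% of all genes in either direction and 6.66% as higher. The choice of members knew these libraries, so nothing is read from these counts either. With the replicate number as a block the same 6 were called, while the count over all genes went from 3362 to 5450. The log2 fold changes were 0.24 (standard error 0.06) for CXCL1, 0.35 (0.06) for CXCL3, 0.76 (0.10) for PPBP, 0.53 (0.06) for CXCL16 and 0.35 (0.09) for CCL20. CXCL2 (0.12), CXCL5 (0.14) and CXCL8 (0.03) were higher by less, and CXCL6 was at -0.09. These 4 libraries are part of the 6 above, so the comparisons share their samples. In the same libraries 7 of 8 epithelial markers were called higher with METTL3, and their summed level over all libraries was 7785 to 8748 CPM with METTL3 and 6263 to 9755 CPM with the vector. Of 13 tested markers of the other cell types, PECAM1 was called higher with METTL3, and LYZ, ITGA2B and NRGN were called lower. The part of these markers in the chemokine values was not tested.

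Replicate 1 was then set against replicates 2 and 3 with the group in the model. All 10 members were higher in replicate 1, with a median log2 difference of 0.36, beside 0.04 over all genes. The test called 5 members (CXCL1, CXCL3, CXCL5, PPBP and CCRL2), beside 9.06% of all genes in either direction and 4.25% called higher. As the members were chosen with results of these libraries known, these counts are descriptions. For 7 members both replicate 1 libraries lay above the other 4 libraries, and this holds for 17.0% of all genes. PPBP had the largest log2 difference of the members, 2.06 (standard error 0.35), followed by CXCL5 at 0.89 (0.10), CCRL2 at 0.87 (0.18), CXCL3 at 0.65 (0.11) and CXCL1 at 0.41 (0.09). The count of called members was 1 (CXCL5) without METTL3 replicate 2 or without vector replicate 3. In these fits 264 of 22907 and 233 of 22886 genes were called. It was 3 without METTL3 replicate 3 or vector replicate 2, where 629 of 22902 and 776 of 22879 genes were called. The count over all genes therefore fell as well, from 1997. All 8 epithelial markers were also higher in replicate 1, 1 of them called. Of 14 tested markers of leukocytes, platelets, fibroblasts and endothelium, 2 were called higher in replicate 1, PECAM1 by 0.99 and CD14 by 0.56 on the log2 scale (adjusted p = 0.0267 and 0.025 from edgeR), and 2 lower, NRGN at -0.74 and PDGFRB at -1.42 (adjusted p = 0.0164 and 0.00874 from edgeR). The part of these markers in the members' values was not tested.

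The size of the replicate 1 difference was not the same in the 2 groups. PPBP was 7.37-fold higher in replicate 1 than in the mean of the other replicates with the vector and 2.08-fold higher with METTL3. For CCRL2 it was 2.28-fold and 1.46-fold, and for CXCL3 1.76-fold and 1.40-fold. For CXCL1 the values were 1.33-fold and 1.32-fold, and CXCL16 went the other way, with 1.04-fold and 1.29-fold. There is 1 replicate 1 library in each group, so these differences between groups were not tested.

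**Figure D4:**
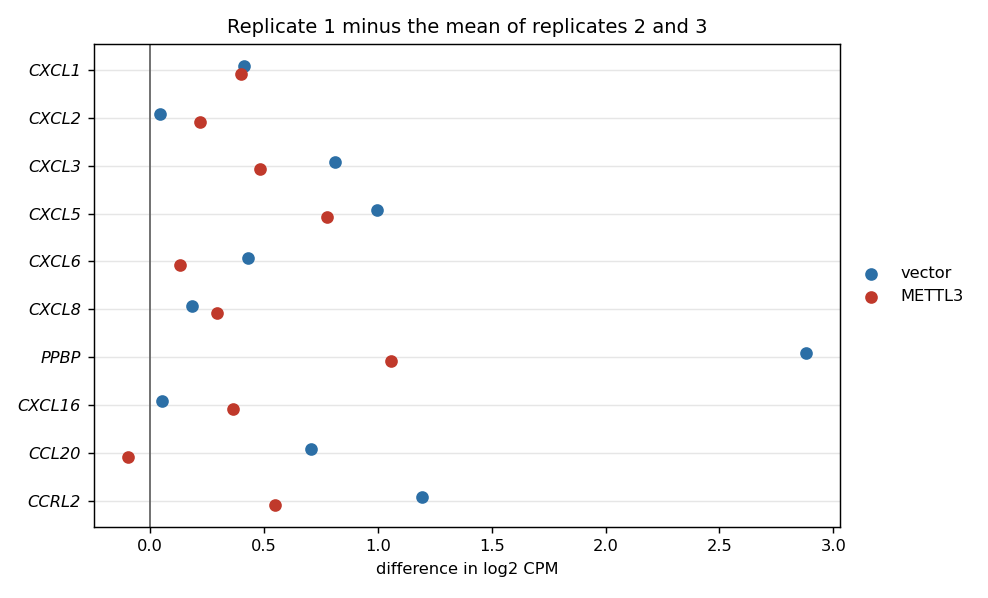
Log2 CPM of replicate 1 minus the mean of replicates 2 and 3, within the vector group (blue) and the METTL3 group (red). The difference is above 0 for every member and group except CCL20 with METTL3, and it is largest for PPBP with the vector, at 2.88.

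The genes around the locus and the wider pathway were taken from 7 lists set by function and position, with earlier results of these libraries known. Of 89 pathway genes tested over all 6 libraries, edgeR called 0, DESeq2 called 3 and 13 had an unadjusted p under 0.05 from edgeR. Over all genes, edgeR called 0 of 22038 and DESeq2 called 225 of 43096. An unadjusted p under 0.05 from edgeR was found for 1830 of 22038 genes. The values in the next paragraphs are for replicates 2 and 3, where calls rest on 2 libraries a group, and for replicate 1 against the others. In replicates 2 and 3, 28 of 88 were called, beside 15.2% of all genes. For replicate 1, 16 of 89 were called, beside 9.06% of all genes. Of the 23 genes named as called in replicates 2 and 3, 14 had the same direction in the replicate 1 pair and 9 the opposite one (AREG, EREG, CX3CL1, RELB, IL1RAP, TNFRSF1A, ICAM1, BIRC3 and DUSP1). None of the 23 was called over all 6 libraries by edgeR, where their adjusted p ranged from 0.34 to 0.919.

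Next to the CXC locus on chromosome 4 lie the genes of the EGF receptor ligands amphiregulin and epiregulin. In replicates 2 and 3, AREG rose with METTL3 by 0.79 (log2; adjusted p = 0.000261 from edgeR) and EREG by 0.38 (adjusted p = 0.000169 from edgeR). In replicate 1 both were lower with METTL3, AREG at 108 against 143 CPM and EREG at 344 against 374 CPM. Over all libraries the log2 fold changes were 0.30 for AREG and 0.24 for EREG (adjusted p = 0.761 and 0.709 from edgeR). They were the 2 called of 6 neighbours tested in replicates 2 and 3, and the metabolic gene MTHFD2L was at 0.19 (adjusted p = 0.199 from edgeR). The chemokine genes PF4 and PF4V1, inside the locus, were at most 0.0161 and 0.127 CPM. Among 9 other chemokines tested, CCL28, a mucosal chemokine, rose by 0.89 (adjusted p = 3.82e-07 from edgeR), and its means over all libraries were 159 ± 16.3 (METTL3) and 103 ± 39.1 CPM (vector; SD, n = 3 each). CXCL14 fell by 1.32 (adjusted p = 9.61e-06) and CX3CL1, another membrane-anchored chemokine, fell by 0.55 (adjusted p = 0.0079, both from edgeR). Over all libraries CCL28 was at 0.62, CXCL14 at -1.21 and CX3CL1 at -0.20 on the log2 scale, and CX3CL1 was higher with METTL3 in replicate 1 (6.37 against 4.53 CPM). CCL2, the monocyte attractant, was at 17.4 ± 1.15 and 18.3 ± 1.28 CPM (SD, n = 3 each). Of the receptor and protease genes, edgeR and DESeq2 called 0 in each of the 3 comparisons. The edgeR shares over all genes were 0.0% over all libraries, 9.06% for replicate 1 and 15.2% in replicates 2 and 3. An unadjusted p under 0.05 from edgeR was found for 2 of 8 over all libraries, beside 1830 of 22038 genes. For replicate 1 it was found for 2 of 8, beside 6059 of 22038 genes. In replicates 2 and 3 it was found for 1 of 6, beside 5980 of 22046 genes. CXCR1 and CXCR2, which bind the CXC ligands, were at most 0.163 and 0.190 CPM, and CCR6 was listed at 0 in all libraries.

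The list of NF-κB subunits and inhibitors was called in both directions. In replicates 2 and 3, 2 of 15 genes rose and 2 fell, with a median log2 fold change of 0.03. The subunit gene RELA rose by 0.17 (adjusted p = 0.04) and TNIP1, which acts with the deubiquitinase A20, rose by 0.22 (adjusted p = 0.0162 from edgeR). RELB fell by 0.23 (adjusted p = 0.0196) and NFKBIE, an inhibitor, fell by 0.26 (adjusted p = 0.016 from edgeR). Each of these 4 calls was lost when some single library was left out. For RELA these were METTL3 replicates 2 and 3 and vector replicate 3, and for RELB METTL3 replicates 2 and 3 and vector replicate 2. TNIP1 lost its call without METTL3 replicate 2 or vector replicate 3, and NFKBIE without METTL3 replicate 3 or vector replicate 2. Over all libraries the log2 fold changes were 0.29 for RELA, 0.24 for TNIP1, -0.07 for RELB and -0.29 for NFKBIE, and RELB was higher with METTL3 in replicate 1 (30.0 against 24.6 CPM). IKBKB, the kinase that marks the inhibitors for decay, was at -0.05 (adjusted p = 0.6 from edgeR). NFKBIA, itself an NF-κB target, had means of 281 ± 9.98 (METTL3) and 247 ± 16.3 CPM (vector; SD, n = 3 each; adjusted p = 0.65 from edgeR over all libraries).

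Of the genes for IL-1 and TNF input, 4 of 21 rose and 4 fell in replicates 2 and 3. Both IL-1 ligands were among those that rose, IL1A by 0.67 (adjusted p = 1.95e-06) and IL1B by 0.63 (adjusted p = 0.000167 from edgeR). Over all libraries IL1B had means of 17.6 ± 0.972 (METTL3) and 10.4 ± 1.47 CPM (vector; SD, n = 3 each; adjusted p = 0.34 from edgeR). MYD88, the adaptor below the IL-1 receptor, rose by 0.24 (adjusted p = 0.0106 from edgeR). The co-receptor IL1RAP fell by 0.37 (adjusted p = 0.000641) and the kinase IRAK1 fell by 0.23 (adjusted p = 0.0217 from edgeR), as did the receptor gene TNFRSF1A by 0.19 (adjusted p = 0.0199 from edgeR). The IRAK1 call was lost without METTL3 replicate 3 or vector replicate 2, and the TNFRSF1A call without METTL3 replicate 2 or 3 or vector replicate 2. Over all libraries the log2 fold changes were 0.73 for IL1A, 0.77 for IL1B, 0.20 for MYD88, -0.24 for IL1RAP, -0.25 for IRAK1 and -0.11 for TNFRSF1A, and in replicate 1 the pairs of IL1RAP (55.7 against 55.1 CPM) and TNFRSF1A (149.8 against 138 CPM) were higher with METTL3. IRAK2 was at 0.05 (adjusted p = 0.611 from edgeR). In replicate 1 against the others, 1 of 20 genes tested rose and 4 fell. Among those that fell were IL1A by 0.70 (adjusted p = 0.00806) and IRAK1 by 0.63 (adjusted p = 0.0147, both from edgeR). The calls of IL1A and IRAK1 were lost without METTL3 replicate 2 or vector replicate 3.

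Among 17 other inflammatory NF-κB targets, 6 rose and 3 fell in replicates 2 and 3. IL6 rose by 1.18 (adjusted p = 3.86e-05), BIRC3, a survival factor, by 0.60 (adjusted p = 2.13e-06) and CSF1, the macrophage growth factor, by 0.46 (adjusted p = 0.000112 from edgeR). ICAM1, the leukocyte adhesion molecule, fell by 0.62 (adjusted p = 4.07e-06) and the protease gene MMP7 fell by 0.73 (adjusted p = 1.36e-06 from edgeR). Replicate 1 went the other way for ICAM1, at 257 with METTL3 against 159 CPM, and for BIRC3, at 510.3 against 688 CPM. Over all libraries the log2 fold changes were 1.17 for IL6, 0.20 for BIRC3, 0.60 for CSF1, -0.30 for ICAM1 and -0.93 for MMP7. In replicate 1 against the others, 4 of the 17 rose and 4 fell, with MMP7 higher by 0.95 (adjusted p = 0.00546), LCN2 by 0.65 (adjusted p = 0.0122) and IL6 by 0.77 (adjusted p = 0.0171), and CSF1 lower by 0.85 (adjusted p = 0.0209, all from edgeR). Without METTL3 replicate 2 or without vector replicate 3, the calls of LCN2, IL6 and CSF1 in that comparison were lost and that of MMP7 remained. LCN2 and IL6 also lost theirs without METTL3 replicate 3 or vector replicate 2.

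Of 14 genes whose products act on AU-rich transcripts, 1 rose and 1 fell in replicates 2 and 3. ZC3H12A, which encodes a nuclease of inflammatory mRNAs, rose by 0.28 (adjusted p = 0.00264), and DUSP1, a phosphatase that limits p38, fell by 0.28 (adjusted p = 0.00724, both from edgeR), a call lost without METTL3 replicate 2. DUSP1 was higher with METTL3 in replicate 1 (25.2 against 18.5 CPM), and over all libraries ZC3H12A was at 0.44 and DUSP1 at -0.09 on the log2 scale. The abundant genes HNRNPD (-0.10) and CNOT1 (0.14) were not called. In replicate 1, ELAVL1 fell by 0.48 (adjusted p = 0.0292) and KHSRP by 0.53 (adjusted p = 0.0406, both from edgeR). Both calls were lost when any library of replicate 2 or 3 was left out, and that of KHSRP also under upper-quartile scaling (-0.47).

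**Figure D5:**
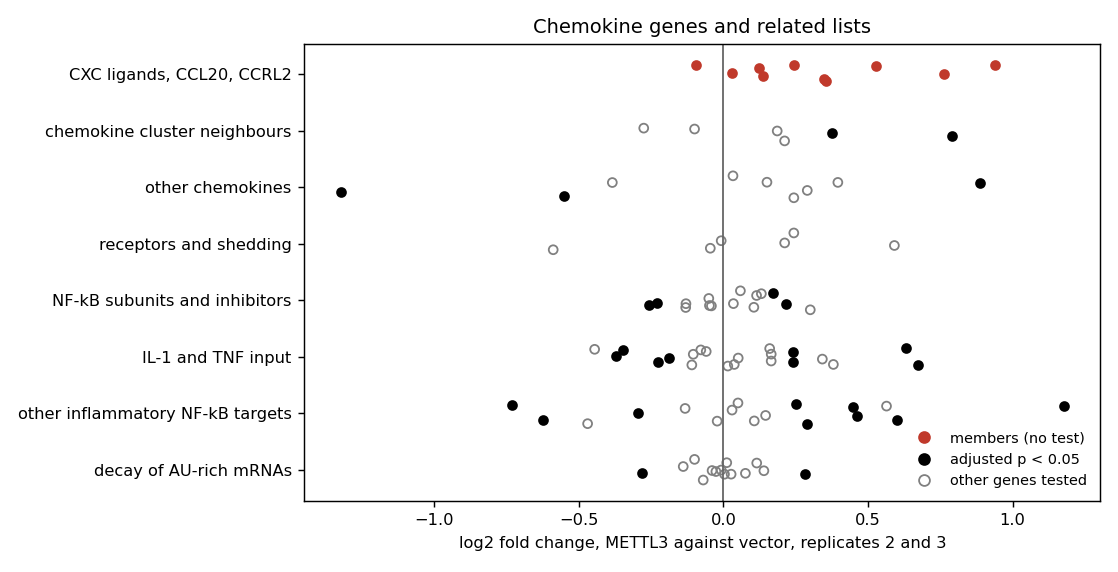
Log2 fold change of METTL3 against the vector in replicates 2 and 3 for the members (red) and for the genes of 7 related lists, filled where edgeR's adjusted p is under 0.05. The members lie from -0.09 to 0.94, and the called genes of most lists lie on both sides of 0.

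By the mean absolute difference of centred log2 CPM over the 6 libraries, among 14684 genes with at least 1 CPM, the genes nearest to CXCL8 were LINC00667 (0.0235), CXorf38 (0.0278) and MDM4 (0.0287). Nearest to CXCL1 were COMTD1 (0.0268), LRRC1 (0.0291) and FAM86C2P (0.0326). Among the genes near CCRL2 were NMRAL1 (0.0914) and ARHGAP8 (0.0961). Within the members, CXCL2 and CXCL8 were the closest pair (0.0641), followed by CXCL1 and CXCL3 (0.108), and CXCL2 and PPBP were the farthest apart (0.817). With 6 libraries, many genes can follow any such pattern.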

How the data were processed

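RNA-seq was done on 3 METTL3-overexpressing and 3 empty-vector OVCAR5 libraries. Per the labels and the study's methods, the authors aligned reads to hg38 with HISAT2 and counted them per gene with featureCounts of Subread, and the deposited values are raw counts, neither normalized nor filtered. The processing notes also name fastp. Versions, annotation release and strand setting are not given in the sources used here, and labels and methods differ on kit and read type. Between 67.6% and 70.5% of counts from 1 to 20 were even, as if both mates had been counted.

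Identifiers were matched without version to GENCODE 44 (60507 rows named). Low counts were filtered with filterByExpr of edgeR 4.0.16 (R 4.3.3), libraries were scaled by TMM, and the robust quasi-likelihood test of edgeR was run. P-values were adjusted over all genes by Benjamini and Hochberg, with a threshold of 0.05. A standard error is |log2 fold change| divided by √F. DESeq2 1.42.0, which the study used, was an alternative. Transcripts were aligned with Biopython 1.88, and promoters came from RefSeq (GRCh38.p14). Members and lists were chosen with earlier results of these data known. The text names all members, METTL3, genes of each pathway list picked by a rule (the 3 with the highest mean CPM and up to 5 with the smallest adjusted p among those called), and the 3 genes nearest to CXCL8, CXCL1 and CCRL2. One gene that this rule names is not reported here. Receptors and cell type markers, and PF4 and PF4V1, were named outside this rule after their values were seen. 1 list entry found no row.

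Deviations from the group mean correlated between libraries of the same number at 0.33, 0.12 and 0.17 for numbers 1, 2 and 3. Across numbers, METTL3 replicate 2 correlated with vector replicate 3 at 0.21, and METTL3 replicate 3 with vector replicate 2 at 0.13. The values therefore do not tell which libraries of numbers 2 and 3 belong together, and the labels name no pairing. Differences within a replicate number are descriptions. The main fits held the group without a replicate block, which was an alternative. Alternatives were DESeq2, other scalings and filters, halved counts, a replicate block, and each library left out.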

Additional observations from a re-analysis of the deposited data

How the results depend on the processing

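For METTL3 against the vector over all libraries, the count of called genes was 0 in edgeR, 225 with DESeq2 and 560 without a filter on low counts, from 0 to 367 when 1 library was left out (367 without vector replicate 1), and 0 with the replicate block (2480 at an unadjusted p under 0.05). For replicate 1 against the others, 1997 became 3137 with DESeq2, 4220 without a filter and from 233 to 9028 with 1 library left out. The split there was 936 higher and 1061 lower, but 1258 and 836 with upper-quartile scaling and 827 and 1188 with RLE size factors. For replicates 2 and 3, the replicate block gave 5450 against 3362. The cause of these shifts was not tested. The block changed no member's call. The count of members higher with METTL3 was from 6 to 9 under the alternatives run. Of the named list genes, 7 of 23 called in replicates 2 and 3 and 9 of 10 called for replicate 1 lost the call when some library was left out, and 2 of the latter (KHSRP and TNFRSF1A) also under upper-quartile scaling. Reads shared by CXCL1, CXCL2 and CXCL3, the overlap of PPBP with a second gene and the depth of CCRL2 limit those values.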
